A study of Danio rerio with 18 samples.

Results

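The epidermal and keratin genes described here were 48 of the 32057 genes in the deposited tables. They were chosen by name from a list of 50 zebrafish gene symbols, in which 40 names matched a gene exactly and 7 matched once the paralogue letter was dropped. No gene was found under krt96, krtt1c19e or evplb. Dropping the letter led jupa to 2 genes that both carry the symbol JUP, so which of them is the named paralogue is not settled. The 48 genes were sorted by role into 14 keratins, 16 junction genes, 4 hemidesmosome genes, 7 regulators and 7 other surface genes. A test was possible for 46 of them. The keratin genes krt93 (at most 0.26 TPM) and krt95 (at most 0.08 TPM) lay below the limit of 1 TPM in at least 2 libraries that a gene had to reach. TPM is a transcript abundance corrected for gene length, so that levels of different genes can be set side by side. It is scaled to the same sum in each library, so each level is a share of the total.

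The skin of the zebrafish embryo consists of an outer periderm over a layer of basal keratinocytes, with ionocytes and mucous cells between them. Keratins pair a type I with a type II chain into intermediate filaments, which desmosomes anchor between cells and hemidesmosomes anchor to the basement membrane. Claudins seal tight junctions, and grainyhead-like and AP-2 transcription factors drive the epidermal programme. In the wild-type embryo p53, a transcription factor activated by DNA damage, turns on cell death and cell cycle genes after irradiation.

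RNA came from whole embryos that were given 30 Gy of X-rays at 5 Gy per min and are labelled 30 h after fertilization. Wild-type embryos (p53 +/+) were measured untreated and at 3 h after irradiation, and p53 mutants (p53 -/-) untreated, at 1 h and at 3 h. Triple mutants (puma -/- noxa -/- p21 -/-) carry mutations in bbc3 (puma) and pmaip1 (noxa), which promote cell death, and in cdkn1a (p21), which halts the cell cycle. They were measured untreated and at 1, 2 and 3 h. The label of the triple mutant gives no p53 genotype. Each of the 9 groups held 2 libraries, 18 in all. The labels do not say when the untreated embryos were collected, so age at collection and irradiation cannot be told apart. Nor do they say whether the libraries of a group came from separate clutches, so the p-values measure only the spread between these libraries. Because whole embryos were sampled, fewer epidermal cells and less RNA per cell cannot be told apart.

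Depth is unknown from TPM values, and between 14057 and 17419 genes reached 1 TPM in a library. Transcripts of the 3 genes mutated in the triple mutant were still measured. At 3 h after irradiation cdkn1a stood at 65.8 and 51.9 TPM there, against 361 and 306 TPM in wild type. At the same time bbc3 stood at 35.4 and 33.8 TPM against 87.5 and 100.04 TPM. For pmaip1 the values were 6.17 and 5.82 TPM against 10.5 and 10.6 TPM. Over the triple mutant libraries at 1, 2 and 3 h the lowest values were 33.9, 11.7 and 2.22 TPM in the same order of genes. Replicate libraries correlated (r across genes) at 0.987 to 0.994, except untreated wild type (0.944), untreated p53 mutant (0.963) and p53 mutant at 1 h (0.907). In those 3 groups replicate 1 held 304 to 631 TPM of 5.8S ribosomal RNA and replicate 2 held 13.6 to 52.8 TPM, while the other 12 libraries held none. Members moved with that split. In untreated wild type the median member was 0.76 (log2) higher in replicate 1 than in replicate 2 among keratins and 1.1 higher among other surface genes. Among junction genes the same difference was 0.01, and over all genes it was -0.42. In the p53 mutant at 1 h the 4 differences were 0.44, 0.98, -0.57 and -0.75. The part of this split in the results on the wild type and the p53 mutant was not tested beyond leaving out either set of 3 libraries, which is given with those results.

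Keratins dominated the set. The type II keratin krt4, a periderm keratin, had the second highest mean level of all 32057 genes, at 9504 TPM over the 18 libraries. The type I keratin cyt1 ranked at 5 (7694 TPM) and its neighbour cyt1l at 11 (6646 TPM). The keratins together took 2.07 to 3.98% of all TPM in a library, and all members together 2.44 to 4.67%. Next among the members stood icn, a calcium-binding ictacalcin of the S100 family, with a mean of 2718 TPM, and krt5, a type II keratin, with 977 TPM. The most abundant junction genes were the claudin cldni (215 TPM), the adhesion molecule epcam (165 TPM) and the plakoglobin gene JUP (ENSDARG00000070787, 124 TPM). Regulators were lower, led by the AP-2 factors TFAP2A (57.9 TPM) and TFAP2C (36 TPM) and by GRHL1 (23.8 TPM). The hemidesmosome genes itga6b and ITGB4, the integrin pair that binds laminin, had means of 23.2 and 6.48 TPM, and the transmembrane collagen col17a1a had 5.23 TPM. Several keratins are neighbours in the RefSeq gene order (krt92, cyt1l, cyt1, krt17 and krt91 in a row, and krt5, krt8 and krt18a.1 in another), as are icn and icn2. How the authors' quantification divided reads between such close relatives is not known.

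**Figure D1:**
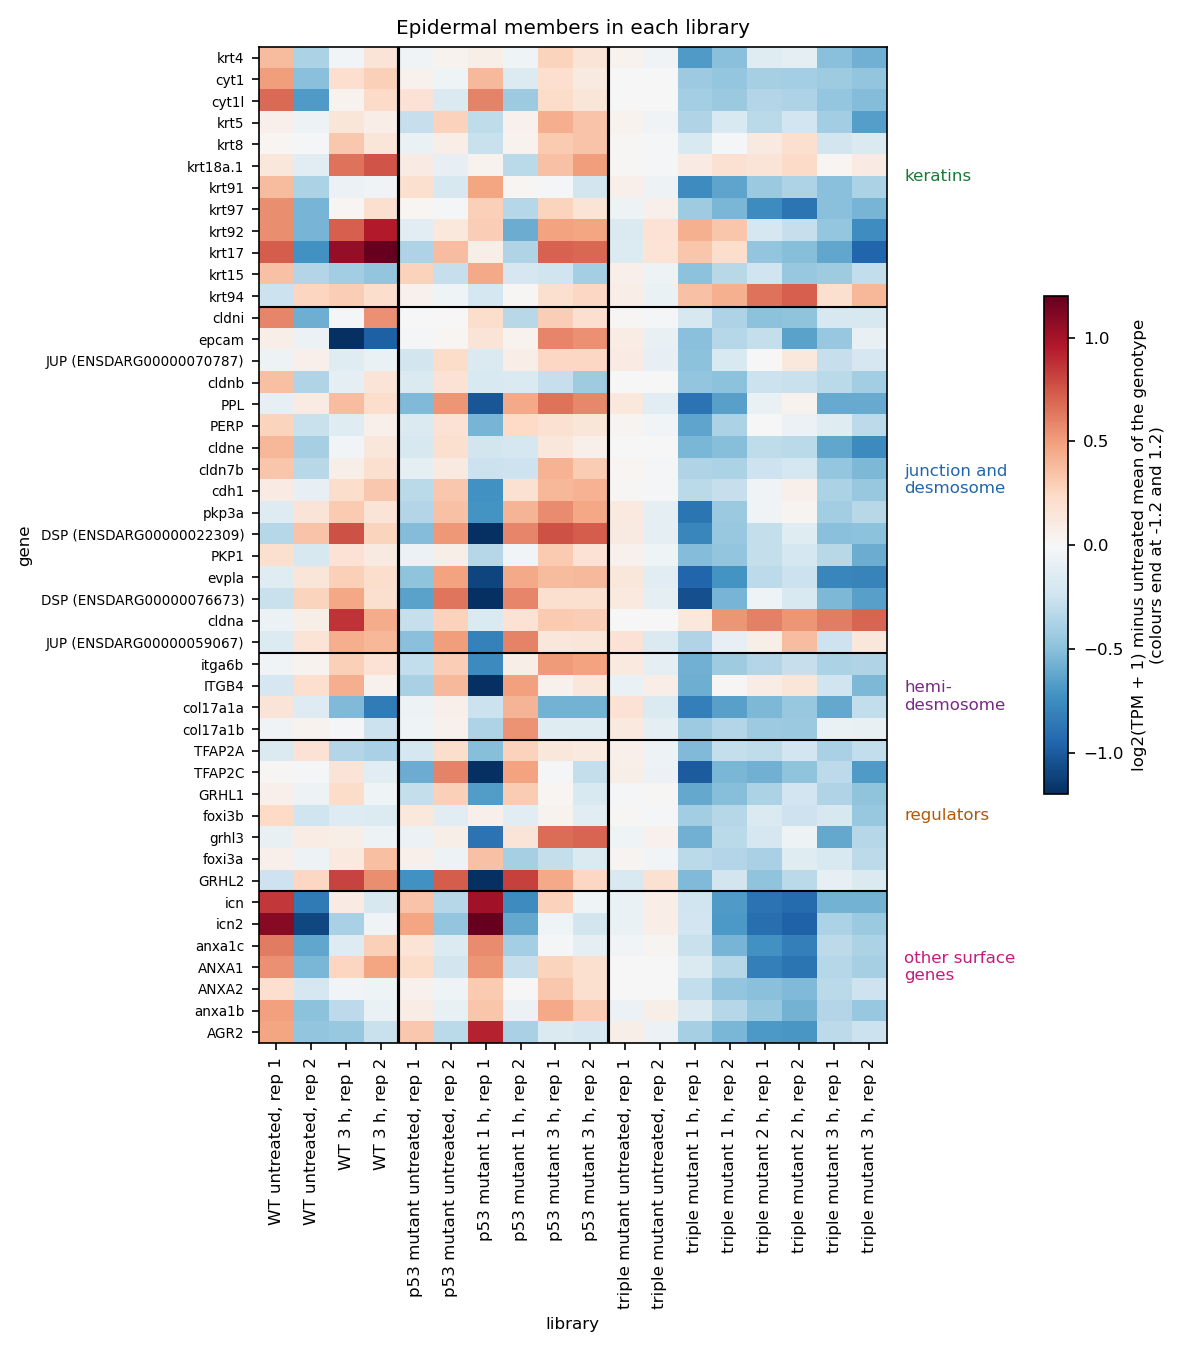
Level of each tested member in each of the 18 libraries, with genes in rows ordered by role, libraries in columns ordered by group, and colour giving log2(TPM + 1) minus the mean of the untreated libraries of that genotype. In the irradiated triple mutant libraries most rows are below 0, with surface genes lowest at 2 h, and the untreated wild-type libraries of icn and icn2 lie further apart than those of the triple mutant.

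In wild-type embryos at 3 h, epcam fell and krt18a.1 rose, and the other 44 tested members did not pass. Changes are differences of mean log2(TPM + 1), and the threshold for a call was an adjusted p of 0.05 in a limma model of all 18 libraries. Calls fell on 2 of 46 members, against 3.78% of all 18575 genes tested. One was among the 3.11% called higher and the other among the 0.668% called lower. At an unadjusted p under 0.05, 4 members were higher and 2 lower, against 14.7% and 2.99% of all genes.

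The epithelial adhesion molecule epcam stood at 154 and 139 TPM untreated and at 62.1 and 73.6 TPM at 3 h, so both irradiated libraries lay well below both untreated ones. Its mean level fell by 53.6%, a log2 change of -1.1 (SE 0.165, adjusted p = 0.00321). Across 30 alternative settings the change ran from -1.40 to -0.98 and the adjusted p from 0.000977 to 0.293. The call was lost with array weights and in a fit of the wild-type libraries alone.

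The simple-epithelium type I keratin krt18a.1 stood at 459 and 380.5 TPM untreated and at 655 and 706 TPM at 3 h, again without overlap. Its mean level rose by 62.1%, a log2 change of 0.70 (SE 0.146, adjusted p = 0.0219). Over the alternatives the adjusted p ran from 0.000256 to 0.722, and 6 of 30 settings lost the call. These were median-of-ratios scaling (0.40, adjusted p = 0.722), array weights, the fit of the wild-type libraries alone, and leaving out replicate 1 (0.76, 0.0773) or replicate 2 (0.65, 0.185) of the 3 h group or replicate 2 of the untreated group (0.57, 0.0861). Its type II partner krt8 stood at 792 and 763 TPM untreated and at 970.0 and 859 TPM at 3 h, a difference of 0.23 that did not pass.

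The abundant keratins were spread too widely in untreated wild type for a comparison. For krt4 the untreated libraries held 14772 and 8739 TPM and the 3 h libraries 11117 and 12654 TPM. For cyt1 the values were 10495 and 5264 TPM and 8536 and 9042 TPM, and for cyt1l they were 10678 and 4160.5 TPM and 6884 and 7831 TPM. In all 3 genes both irradiated libraries lay between the untreated ones, with log2 differences of 0.06, 0.24 and 0.14. Among keratins singled out after their values were seen, krt17 stood at 101 and 36.4 TPM untreated and 127 and 156 TPM at 3 h. That was the highest difference of any member, 1.2 (SE 0.377), but it did not pass (adjusted p = 0.108). Its neighbour krt92 differed by 0.83 (adjusted p = 0.205).

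Of the other junction genes, cldni stood at 184 and 80.5 TPM untreated and at 119.7 and 179 TPM at 3 h, and the irradiated libraries lay between the untreated ones. JUP (ENSDARG00000070787) stood at 162 and 178 TPM and then 153 and 161 TPM, slightly lower without overlap, by -0.11. Of the 16 junction genes, 13 were above 0, against 75% of all genes, with a median difference of 0.24. The median was 0.19 over the 12 keratins and 0.23 over all genes.

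Among hemidesmosome genes, itga6b stood at 31.9 and 34.03 TPM untreated and 40.3 and 37.2 TPM at 3 h, higher in both irradiated libraries. Its partner ITGB4 had 8.26 and 11.3 TPM and then 13.4 and 10.1 TPM, which overlapped. The opposite order was seen in col17a1a, with 15.6 and 12.4 TPM untreated and 9.37 and 7.35 TPM at 3 h. Both irradiated libraries were lower, by -0.68, without passing (adjusted p = 0.157). Their median difference was 0.05.

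The regulator TFAP2A stood at 75.1 and 95.3 TPM untreated and 65.9 and 64.2 TPM at 3 h, lower in both irradiated libraries by -0.37. TFAP2C had 38.3 and 37.5 TPM and then 42.4 and 34.8 TPM, and GRHL1 had 28.7 and 26.2 TPM and then 32.1 and 26.3 TPM. Neither of the latter was separated from its untreated libraries, and the median of the 7 regulators was 0.02.

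Surface genes were the least reproducible in untreated wild type. The ictacalcin icn stood at 3238 and 997 TPM untreated and 1923 and 1578 TPM at 3 h, and icn2 at 689 and 152 TPM and then 247 and 314 TPM. The annexin anxa1c, a calcium-dependent membrane-binding protein, had 536 and 224 TPM and then 311 and 423 TPM. In each the irradiated libraries fell inside the untreated range, and none of the 7 surface genes was separated. Their median was -0.05.

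Over all members the wild-type median was 0.12, with 14 members higher and 5 lower in both irradiated libraries than in both untreated ones, against 36% and 6.78% of all genes. The direction of that median depended on scaling. Median-of-ratios scaling moved the median of all genes by -0.24 and quantile normalization by -0.22, and the members' median became -0.18 and -0.03. Relative to all genes the members stood at -0.11, -0.17 and -0.04 in the 3 scalings. Without the 3 libraries with high 5.8S, 17 members were called higher and 2 lower, against 16.2% and 12.3% of all genes. Without the 3 with low 5.8S, 10 were called higher and 16 lower, against 53.2% and 5.01%. In both settings the untreated group held 1 library, which was assumed to vary like the other groups. Leaving out replicate 1 of the untreated group gave 4 calls (4.09% of all genes), and leaving out replicate 2 of it, or either 3 h library, gave 1 (0.93 to 2.48%).

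**Figure D2:**
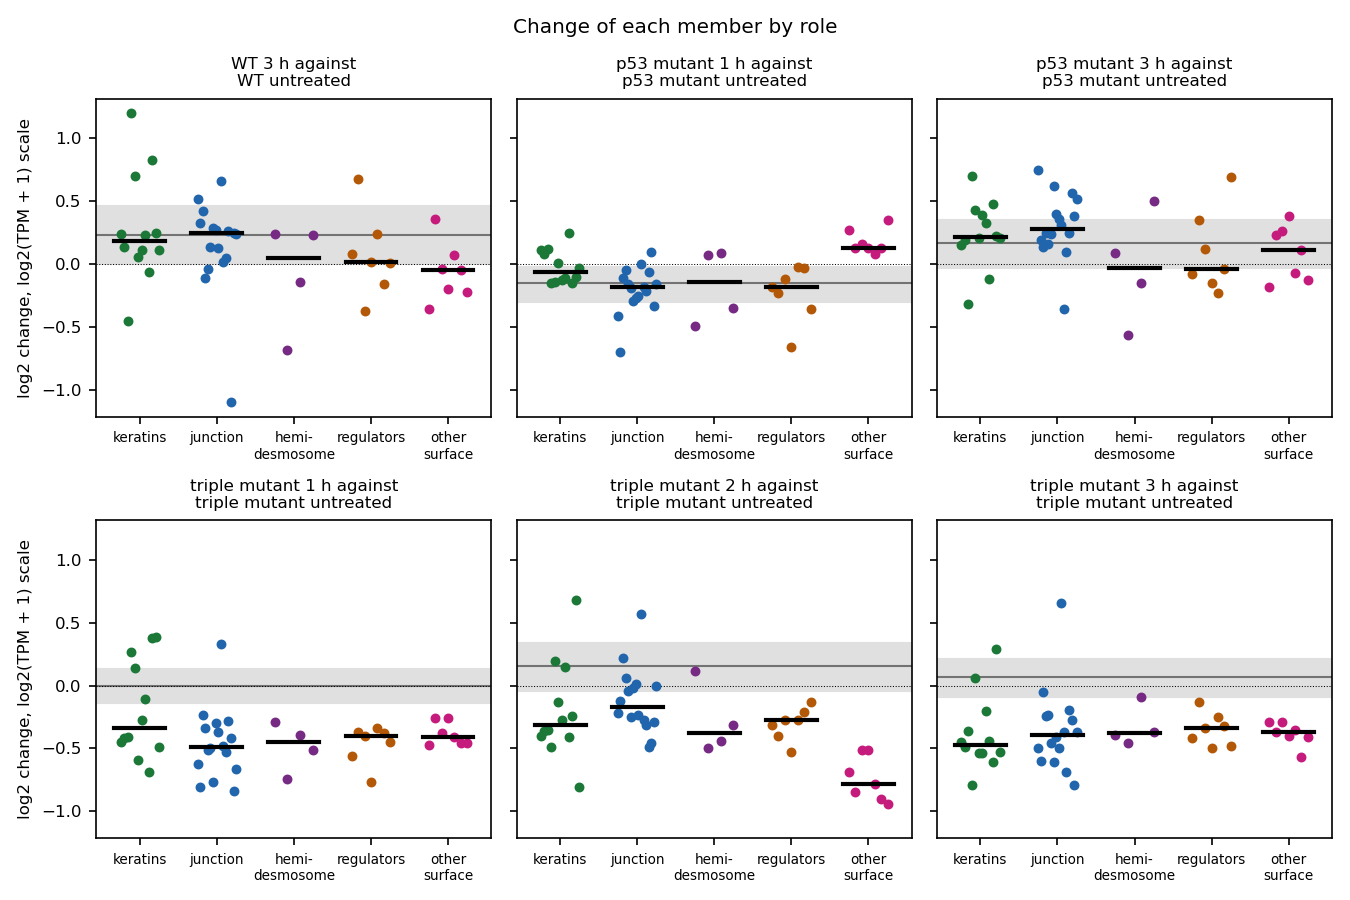
Log2 change of every tested member (points) on the log2(TPM + 1) scale, by role on the horizontal axis, in 6 panels, 1 for each irradiated group compared with its untreated libraries; black bars give the median of the role, the grey line the median of all genes and the grey band their middle quartiles. In the 3 triple mutant panels most points lie below 0, with role medians from -0.17 to -0.78.

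The p53 mutant asks how these genes respond without p53, and no member passed at either time. At 1 h, 0 of 46 were called by limma, as were 0.00538% of all genes, and none had an unadjusted p under 0.05, where 0.226% of all genes were higher and 0.861% lower. At 3 h, 0 of 46 were called against 0.458% of all genes, with 4 members higher and 1 lower at an unadjusted p under 0.05 (7.38% and 2.67% of all genes). A fit of the p53 mutant libraries alone also called 0 members at both times, and 0% and 0.00568% of all genes lower. The comparisons at 1 h and 3 h share the untreated libraries.

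Among keratins, krt4 held 9156 and 9648 TPM untreated, 9893 and 9061 TPM at 1 h and 11323 and 10432 TPM at 3 h. At 1 h the libraries overlapped the untreated ones, and at 3 h both were higher, by 0.21. For cyt1 the values were 7611 and 7038, 9611 and 6517 and 8415 and 7869 TPM, and for cyt1l they were 6857 and 5371, 9144 and 4488 and 7090.3 and 6720.0 TPM. In both the 1 h group had one library above and one below the untreated pair. The level of krt18a.1 was 489.8 and 427 TPM untreated, 472 and 365 TPM at 1 h and 585 and 647 TPM at 3 h. At 3 h it was higher in both libraries, by 0.43 (adjusted p = 0.303), and it was not called. Keratins were separated upwards at 3 h in 9 of 12 cases, with a median of 0.22, against 36.4% of all genes and a median over all genes of 0.17.

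Junction genes gave the highest role median at 3 h, 0.28, with 15 of 16 above 0 against 71.9% of all genes. The level of epcam was 309 and 317 TPM untreated, 348 and 322 TPM at 1 h and 471 and 458 TPM at 3 h, higher than untreated in all 4 irradiated libraries. The 3 h difference was 0.57 and did not pass (adjusted p = 0.214). For cldni the values were 116 and 117, 135 and 92.3 and 143 and 134 TPM, higher at 3 h than untreated in both libraries. JUP (ENSDARG00000070787) stood at 111 and 152, 115 and 138 and 154 and 155 TPM, with the 3 h libraries again above the untreated ones. The library split showed in junction genes too. Their median of replicate 1 minus replicate 2 was -0.5 untreated and -0.57 at 1 h. Over all genes it was -0.34 and -0.75, so the direction was that of all genes. Periplakin, PPL, which links keratin to desmosomes and was singled out after its values were seen, had 61.5 and 129 TPM untreated, 43.1 and 122 TPM at 1 h and 141 and 134 TPM at 3 h. Replicate 2 was the higher library in both of the earlier groups.

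The integrin gene itga6b stood at 18.2 and 27.96 TPM untreated, 12.9 and 23.7 TPM at 1 h and 32.6 and 32.04 TPM at 3 h. ITGB4 stood at 4.51 and 8.44, 1.6 and 9.16 and 6.47 and 6.91 TPM, and overlapped throughout. In col17a1a the values were 5.79 and 6.37, 4.91 and 8.38 and 3.79 and 3.78 TPM, and both 3 h libraries were lower than both untreated ones (-0.56, adjusted p = 0.458), the same order as in the wild type.

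Of the 7 regulators, 5 had replicate 2 as the higher library both untreated and at 1 h. The regulator medians of replicate 1 minus replicate 2 were -0.42 and -0.97, against -0.34 and -0.75 over all genes. The direction was thus that of all genes, and the share of all genes split this way was not computed. TFAP2A stood at 57.05 and 76.9 TPM untreated, 46.1 and 80.4 TPM at 1 h and 72.9 and 71.8 TPM at 3 h. TFAP2C stood at 19.6 and 45.8, 7.96 and 42.3 and 29.9 and 24.4 TPM, and GRHL1 at 19.1 and 28.8, 14.4 and 29.2 and 23.9 and 20.6 TPM. These 3 genes were among the 5. In foxi3a (6.32 and 5.73 TPM untreated, 7.98 and 4.33 TPM at 1 h) and foxi3b (12.1 and 9.97 TPM, then 11.5 and 9.95 TPM) replicate 1 was the higher library. The grainyhead-like factor grhl3, known for its part in epidermal barrier formation and singled out after its values were seen, had 8.91 and 9.91, 4.62 and 10.6 and 15.6 and 15.9 TPM. Its 3 h libraries were higher by 0.69, which did not pass.

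Surface genes showed the reverse split, with replicate 1 the higher library. The values of icn were 1878 and 1167 TPM untreated, 2977 and 876 TPM at 1 h and 1796 and 1426 TPM at 3 h. Those of icn2 were 382 and 196, 686 and 178 and 265 and 236 TPM, and those of anxa1c were 381 and 303, 503 and 256 and 333 and 314 TPM. No irradiated group was separated from the untreated one in these 3 genes.

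At 1 h, 1 member was separated upwards and 2 downwards, against 2.89% and 5.81% of all genes, and the median was -0.11 against -0.15 over all genes. At 3 h, 23 were separated upwards and 4 downwards, against 36.4% and 9.96%, and the median was 0.22 against 0.17. Scaling moved the median of all genes by 0.14 to 0.16 at 1 h and by -0.16 to -0.14 at 3 h. The members' median at 1 h turned to 0.08 under median-of-ratios scaling. At 3 h it shrank to 0.03 under median-of-ratios scaling, 0.02 above that of all genes, and was 0.17 under quantile normalization. The keratin and junction medians at 3 h were 0.02 and 0.1 under median-of-ratios scaling and 0.27 and 0.17 under quantile normalization. The 1 h count rose to 10, all lower, without replicate 2 of that group, where 26.4% of all genes were called lower. Without the low 5.8S libraries there were 14 calls at 1 h and 25 at 3 h, against 33.9% and 46.9% of all genes. Without the high ones there were 0 and 5, against 0.103% and 8.46%.

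In the triple mutant, 41 of 46 members lay below their untreated level at 1 h, 38 at 2 h and 43 at 3 h, against 49.1%, 29.3% and 37.6% of all genes. The median differences were -0.42, -0.28 and -0.40, against 0.00, 0.16 and 0.07 over all genes. None of these members passed in the model of all 18 libraries. Calls were 0 of 46 at each time, against 0.0808%, 0.221% and 0.748% of all genes. At an unadjusted p under 0.05, 8 members were lower at 1 h (1.74% of all genes). At 2 h 4 were lower (2.87%) and 2 higher (4.8%), and at 3 h 5 were lower (2%) and 1 higher (2.96%). The 3 comparisons share the 2 untreated libraries.

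Both irradiated libraries lay below both untreated libraries in 39, 34 and 40 members at 1, 2 and 3 h, against 20.3%, 17.2% and 20.9% of all genes. Both lay above in 5, 5 and 3 members, against 20.9%, 53.3% and 39.3%. The triple mutant libraries repeated closely, and a limma fit of their 8 libraries alone has its own, smaller spread. That fit called 21 members lower at 1 h, 19 lower and 2 higher at 2 h, and 19 lower and 1 higher at 3 h. Of all genes, it called 1.96%, 5.83% and 3.04% lower and 0.75%, 18.4% and 3.78% higher. The counts of lower members depended on single libraries. They ran from 0 (without replicate 1 of the untreated group) to 27 (without replicate 2 at 1 h) at 1 h, from 8 (without replicate 2 at 2 h) to 26 (without either 1 h library) at 2 h, and from 4 (without replicate 2 at 3 h) to 33 (without either 1 h library) at 3 h. The share of all genes called lower ran from 0.0957 to 7.6%, from 1.26 to 8.61% and from 0.593 to 6.38%. The median difference over the members moved little with these libraries, from -0.44 to -0.38, -0.31 to -0.25 and -0.41 to -0.38 in the model of all libraries. It also held its direction in the 3 scalings, at -0.42 to -0.48 relative to all genes.

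**Figure D3:**
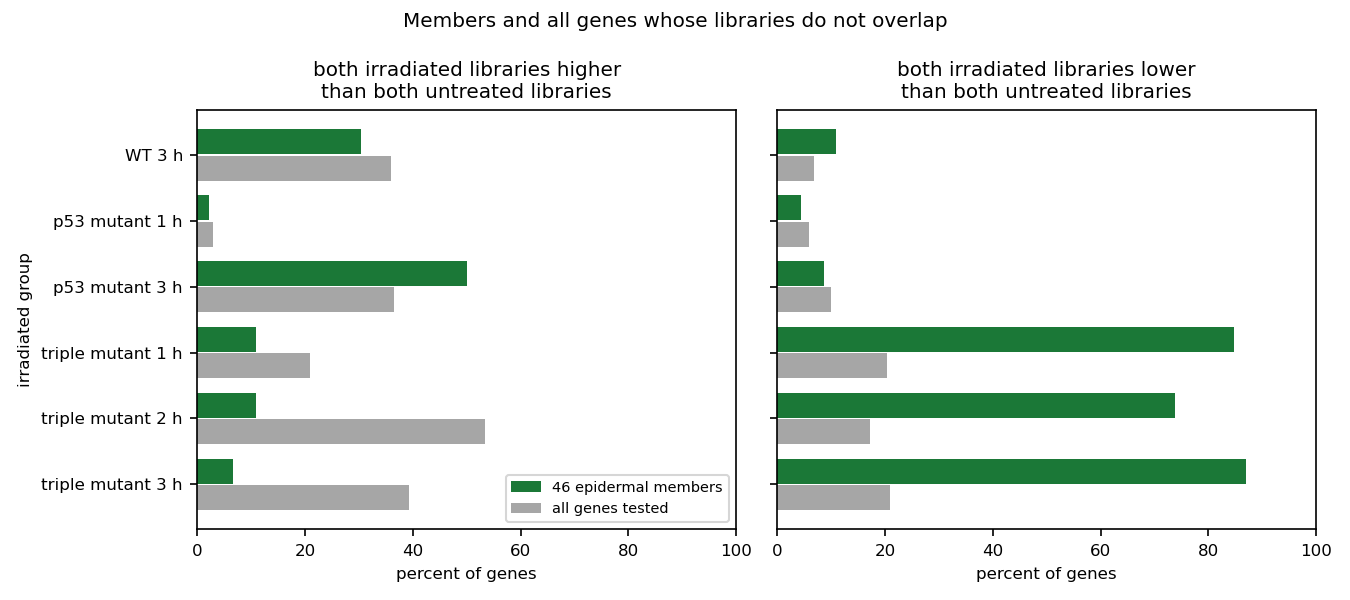
Percent of the 46 tested members and of all 18575 genes whose irradiated libraries both lie above (one panel) or both below (the other) both untreated libraries, for each irradiated group. In the triple mutant the members' bars for lower, drawn in percent, stand for 39, 34 and 40 of the 46 members at 1, 2 and 3 h. The bars of all genes reach 20.3%, 17.2% and 20.9%.

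Keratins held most of the members' TPM. Summed over the 14 keratin genes, the triple mutant held 29773 and 29388 TPM untreated, 21325 and 21962 TPM at 1 h, 24348 and 24503 TPM at 2 h and 21546 and 20659 TPM at 3 h. Every irradiated library was below both untreated ones. As a share of all TPM, the whole set went from 4.04 and 4.09% to 3.05 and 2.92%, 3.09 and 3.09%, and 2.96 and 2.86%.

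The level of krt4 was 10099 and 9569 TPM untreated, 6142 and 6950.0 TPM at 1 h, 8881 and 9138 TPM at 2 h and 6921 and 6571 TPM at 3 h. It was low at 1 h, nearer to untreated but still below it in both libraries at 2 h, and low again at 3 h. The differences were -0.59, -0.13 and -0.54. Over 30 alternatives the 2 h difference of krt4 ran from -0.32 to 0.18, and its step from 1 h to 2 h from 0.24 to 0.70. The type I keratin cyt1 held 9005 and 9031 TPM untreated, 6678 and 6531 TPM at 1 h, 6841 and 6788 TPM at 2 h and 6714 and 6499.9 TPM at 3 h. Its neighbour cyt1l held 7768 and 7823, 5869.7 and 5743, 6129 and 6009 and 5638 and 5428 TPM. Both stayed at one lower level through all 3 times, cyt1 by -0.45, -0.40 and -0.45 and cyt1l by -0.42, -0.36 and -0.49.

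A few keratins lay above their untreated level. The level of krt18a.1 was 326 and 317 TPM untreated, 344 and 366 TPM at 1 h, 358 and 378 TPM at 2 h and 326 and 344 TPM at 3 h. All 6 irradiated libraries were above both untreated ones, by 0.14, 0.20 and 0.06. The keratin krt94, singled out after its values were seen, stood at 6.19 and 5.42 TPM untreated and at 7.64 and 8.16, 9.65 and 10.17 and 6.76 and 7.95 TPM, also higher in every irradiated library. It differed by 0.68 at 2 h and was called there in the fit of the triple mutant alone, but not in the model of all libraries (adjusted p = 0.275).

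The neighbours krt17 and krt92, also singled out after their values were seen, first stood above and then below untreated. The level of krt17 was 249.6 and 314 TPM untreated, 354 and 324 TPM at 1 h, 201 and 196 TPM at 2 h and 181 and 145 TPM at 3 h. That of krt92 was 228 and 291, 347 and 324, 224 and 212 and 186 and 153 TPM. Every group of both genes was separated from untreated, with krt17 at 0.27, -0.49 and -0.79 and krt92 at 0.38, -0.24 and -0.61. Their neighbour krt91 was lower at each time, by -0.69, -0.41 and -0.44. These neighbours thus lay on both sides of 0 at 1 h only, and at 2 h and 3 h all of them were below 0.

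**Figure D4:**
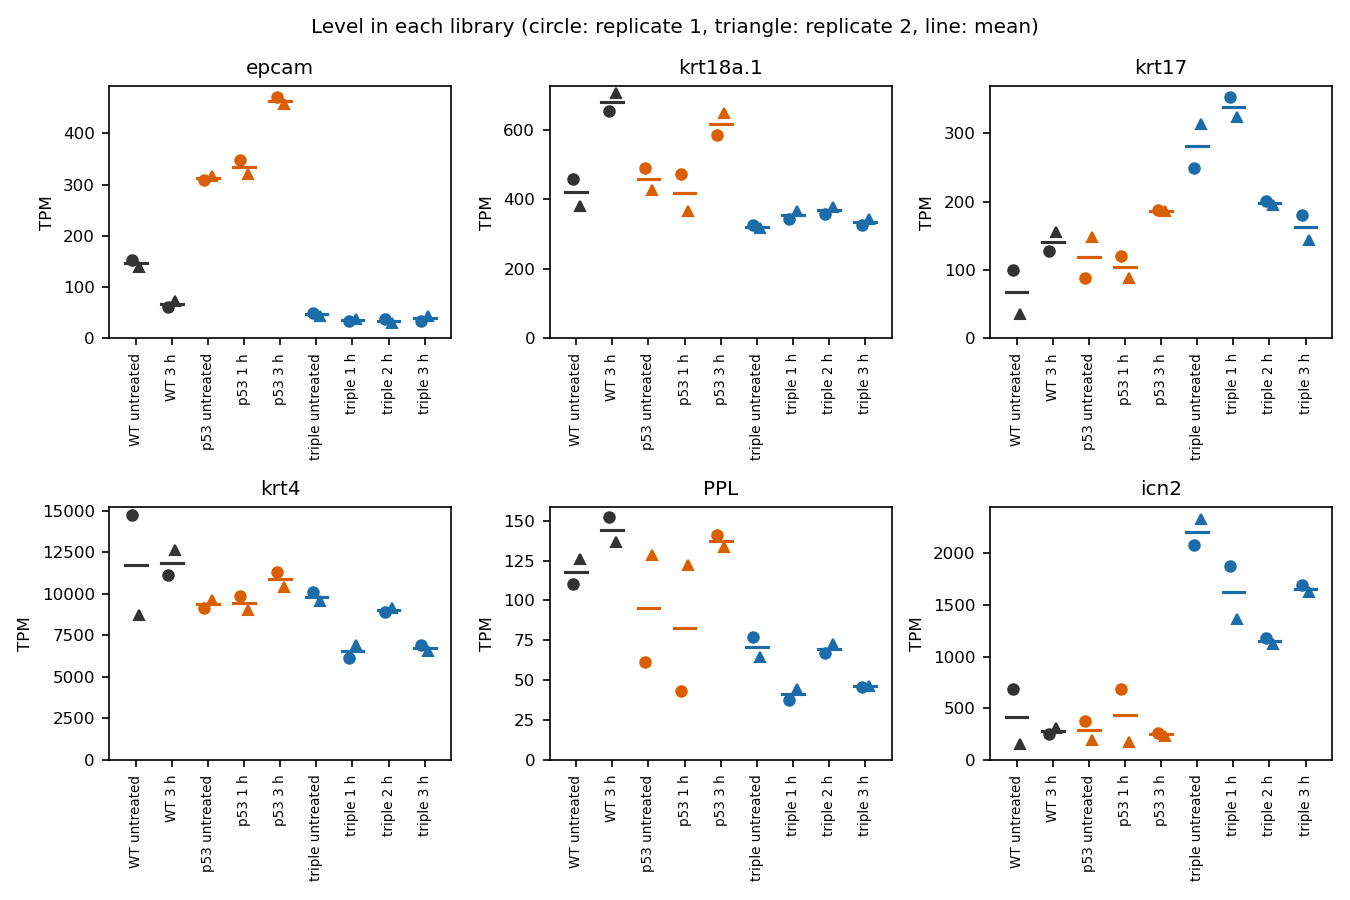
Level in TPM (vertical axis, from 0) of epcam, krt18a.1, krt17, krt4, PPL and icn2 in each library of the 9 groups (horizontal axis), with circles for replicate 1, triangles for replicate 2 and lines for the group mean. The panel of epcam shows the wild-type libraries at 3 h (62.1 and 73.6 TPM) below the untreated ones, and the p53 mutant above both other genotypes.

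Junction genes in the triple mutant had median differences of -0.49, -0.17 and -0.39. The 2 h median was -0.35 under median-of-ratios scaling and -0.34 under quantile normalization. The summed level of the junction genes was 1259 and 1199 TPM untreated, 903 and 928 TPM at 1 h, 1035 and 1046 TPM at 2 h and 976 and 957 TPM at 3 h. The level of cldni was 379 and 373 TPM untreated, 328 and 290.2 TPM at 1 h, 267 and 269 TPM at 2 h and 328 and 328 TPM at 3 h. It was lower in all 6 irradiated libraries, most at 2 h (-0.49). That of epcam was 50.6 and 44.6, 33.3 and 37.2, 38.9 and 30.04 and 34.3 and 44.6 TPM, also lower in every irradiated library, though at 3 h replicate 2 matched the lower untreated library to the digits shown. Its differences were -0.42, -0.46 and -0.27. JUP (ENSDARG00000070787) stood at 109 and 95.2, 72.3 and 89.7, 102 and 112 and 84.2 and 88.3 TPM. It was below untreated at 1 h and 3 h and overlapped at 2 h.

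The 9 desmosome genes (the plakins evpla, PPL and 2 DSP genes, the plakophilins PKP1 and pkp3a, 2 JUP genes and PERP, a desmosomal membrane protein) were all below 0 at 1 h and at 3 h, with medians of -0.62 and -0.46. At 2 h 7 of 9 were below 0 and the median was -0.04. PPL illustrates this course, with 77.3 and 64.8 TPM untreated, 37.7 and 44.6 TPM at 1 h, 66.8 and 72.9 TPM at 2 h and 46.05 and 46.1 TPM at 3 h. Both libraries at 1 h and at 3 h were below both untreated ones, while those at 2 h overlapped them. The near return at 2 h depended on scaling. Under median-of-ratios scaling and quantile normalization 8 of the 9 desmosome genes were below 0 at 2 h, with medians of -0.23 and -0.17. The fit of the triple mutant alone called 7, 0 and 3 of the 9 desmosome genes lower at 1, 2 and 3 h. It called 1.96%, 5.83% and 3.04% of all genes lower. One of the 9, JUP (ENSDARG00000059067), lay near the limit of 1 TPM, with a mean of 0.991 TPM over the 18 libraries.

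The 5 claudins had medians of -0.37, -0.27 and -0.37, and 4 of them were below both untreated libraries at every time. The exception was cldna, singled out after its values were seen, with 3.42 and 3.42 TPM untreated and 3.82 and 5.4, 5.73 and 5.4 and 5.77 and 6.16 TPM after irradiation. It was higher in every irradiated library, by 0.33, 0.57 and 0.66, and was called higher at 2 h and 3 h in the fit of the triple mutant alone, not in the model of all libraries (adjusted p = 0.582 and 0.665). In the wild type it stood at 5.7 and 6.34 TPM untreated and 11.8 and 8.56 TPM at 3 h, higher as well, by 0.66, without passing.

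Hemidesmosome genes were lower with medians of -0.45, -0.38 and -0.38. The level of itga6b was 21.3 and 17.98 TPM untreated, 12.8 and 14.3 TPM at 1 h, 15.2 and 15.98 TPM at 2 h and 14.8 and 15.01 TPM at 3 h, below untreated in all 6 irradiated libraries. That of ITGB4 was 4.71 and 5.4, 3.02 and 5.11, 5.43 and 5.67 and 4.13 and 3.16 TPM, which overlapped at 1 h and was higher at 2 h and lower at 3 h. In col17a1a the values were 3.5 and 2.53, 1.25 and 1.54, 1.74 and 1.9 and 1.6 and 2.25 TPM, lower in all 6, as in the other genotypes at 3 h. The differences of col17a1a were -0.74, -0.50 and -0.46.

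All 7 regulators were below 0 at each time, with medians of -0.40, -0.27 and -0.34. TFAP2A stood at 52.3 and 47.8 TPM untreated, 34.4 and 40.97 TPM at 1 h, 40.2 and 42.6 TPM at 2 h and 37.99 and 40.6 TPM at 3 h. TFAP2C stood at 57.4 and 51.9, 26.8 and 36.97, 36.2 and 38.8 and 43.8 and 33.6 TPM, and GRHL1 at 27.6 and 28.2, 17.9 and 19.3, 21.2 and 23.6 and 21.5 and 19.6 TPM. In these 3 genes every irradiated library was below both untreated libraries. The regulators of ionocytes, foxi3a and foxi3b, were lower by -0.34 and -0.38 at 1 h and by -0.25 and -0.32 at 3 h.

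Surface genes were also all below 0 at each time, with medians of -0.41, -0.78 and -0.37, and all 7 were separated downwards at every time. The level of icn was 4974 and 5580.3 TPM untreated, 4469 and 3295 TPM at 1 h, 2845 and 2786 TPM at 2 h and 3559 and 3556 TPM at 3 h. That of icn2 was 2077 and 2335, 1881 and 1362, 1178 and 1119.9 and 1692 and 1622 TPM, and that of anxa1c was 1194 and 1254, 1014 and 830.4, 737 and 692 and 982 and 942 TPM. In all 3 the 2 h libraries were the lowest of the time course. The fit of the triple mutant alone called 3, 7 and 3 of the 7 surface genes lower, against 1.96%, 5.83% and 3.04% of all genes. AGR2, a protein disulphide isomerase of secretory cells, was lower by -0.47, -0.69 and -0.29.

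Between 1 h and 2 h in the triple mutant, desmosome genes were higher and surface genes lower in both libraries, and between 2 h and 3 h both orders were reversed. None of these steps passed in the model of all libraries. Calls were 0 of 46 for 2 h against 1 h (0% of all genes, 2 members and 1.89% of all genes higher at an unadjusted p under 0.05). For 3 h against 2 h they were 0 of 46 (0.253% of all genes, 1 member and 1.69% of all genes lower at an unadjusted p under 0.05). From 1 h to 2 h all 9 desmosome genes were separated upwards, with a median of 0.47, against 47.7% of all genes and a median over all genes of 0.16. All 7 surface genes were separated downwards, with a median of -0.36, against 13.3% of all genes. From 2 h to 3 h the desmosome median was -0.30, with 8 of 9 separated downwards against 43.5% of all genes. The surface median was 0.41, with 7 of 7 separated upwards against 19.7% of all genes, whose median was -0.09.

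These directions were the same under median-of-ratios scaling and quantile normalization. In all, the fit of the triple mutant alone called 6 members higher and 3 lower from 1 h to 2 h (3.24% and 1.12% of all genes). It called 5 higher and 6 lower from 2 h to 3 h (2.43% and 3.69%). From 1 h to 2 h it called 5 of the 9 desmosome genes higher (evpla, PPL, DSP (ENSDARG00000076673), pkp3a and PERP) and only 1 of the 7 surface genes lower. From 2 h to 3 h it called 4 of the 7 surface genes higher (ANXA1, anxa1c, AGR2 and icn2) and only 2 of the 9 desmosome genes lower. In both steps the calls of that fit depended on single libraries. Leaving out a library of the groups compared removed most or all of them, except replicate 2 at 1 h, without which more were called. The median over all members then ran from 0.09 to 0.22 for the first step and from -0.15 to -0.10 for the second. Under median-of-ratios scaling that fit called 2 members higher and 3 lower in the first step (271 and 530 of 16806 genes). In the second it called 2 and 2 (774 and 654 genes). Roles also differed between the libraries of one group. Medians of replicate 1 minus replicate 2 are given here for surface genes, junction genes and all genes in turn. They were 0.98, -0.57 and -0.75 in the p53 mutant at 1 h, where replicate 1 held high 5.8S. In the triple mutant at 1 h they were 0.18, -0.23 and -0.17, with -0.24 for regulators. In untreated wild type they were 1.1, 0.01 and -0.42. Mitochondrial transcripts took 4.00 and 3.57% of TPM in untreated triple mutants, and 1 h, 2 h and 3 h after irradiation the libraries held 2.35 and 1.70%, 1.15 and 1.48%, and 2.37 and 2.43%. Whether any of these had a part in the time course was not tested.

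**Figure D5:**
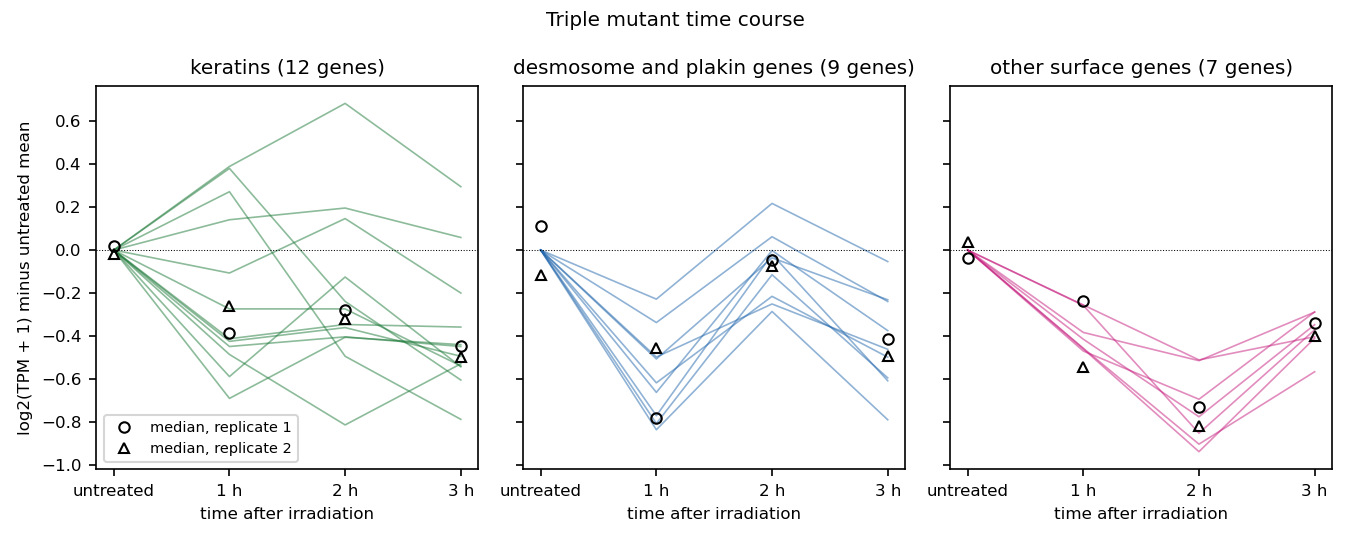
Triple mutant time course of the keratins, desmosome genes and other surface genes, as log2(TPM + 1) minus the untreated mean (vertical axis) against time after irradiation (horizontal axis), with thin lines for single genes and markers for the median in each library. Desmosome genes are lowest at 1 h and surface genes at 2 h, where their median over the group is -0.78.

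The response of epcam differed between genotypes. Its wild-type difference at 3 h minus that of the p53 mutant was -1.67 (SE 0.233, adjusted p = 0.0063), the only one of 46 members called, against 0.382% of all genes in either direction and 0.0377% lower. Both wild-type libraries lay below their untreated pair and both p53 mutant libraries above theirs. Over 29 alternatives the value ran from -1.83 to -1.55 and the adjusted p from 0.00362 to 0.554, with the call lost under median-of-ratios scaling (-1.77, adjusted p = 0.269) and array weights. The difference of krt18a.1 between these genotypes was 0.27 (SE 0.206, adjusted p = 1), and it was not called.

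No member was called between the triple mutant and the other genotypes. The triple mutant minus the p53 mutant at 3 h gave 0 calls (0.28% of all genes), 14 members lower at an unadjusted p under 0.05 (2.96%), and 42 of 46 below 0 (63.7%), with a median of -0.54 against -0.11 over all genes. By role, the medians were -0.64 for keratins, -0.79 for junction genes, -0.21 for hemidesmosome genes, of which 2 of 4 were above 0, -0.35 for regulators and -0.55 for surface genes. The triple mutant minus the wild type at 3 h gave 0 calls (0.0592%), 8 members lower and 1 higher at an unadjusted p under 0.05 (4.56% and 1.39%), and a median of -0.51 against -0.18. The higher one was epcam (0.83, adjusted p = 0.487), and the lowest value was that of krt17 (-1.99, adjusted p = 0.442). At 1 h the triple mutant minus the p53 mutant gave 0 calls (0.0269%), 4 members lower at an unadjusted p under 0.05 (0.592%), and a median of -0.32 against 0.16. The 3 comparisons of responses at 3 h share libraries with each other. In all comparisons of responses, genotype and any difference in how its libraries were made cannot be told apart.

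Untreated levels of the genotypes are given side by side without a test because each genotype was deposited in its own table. The level of epcam was 146 ± 10.1 TPM in the wild type, 313 ± 5.81 TPM in the p53 mutant and 47.6 ± 4.24 TPM in the triple mutant (mean ± SD, n = 2 each), with no overlap between genotypes. The level of icn2 was 421 ± 380.0, 289 ± 131 and 2206 ± 182 TPM in the same order, highest in the triple mutant in both libraries. For icn the values were 2118 ± 1585, 1523 ± 503 and 5277 ± 429 TPM, and for cldni they were 132 ± 72.9, 116 ± 0.686 and 376 ± 3.8 TPM, again highest in the triple mutant. By contrast krt4 stood at 11756 ± 4266, 9402 ± 348 and 9834 ± 375 TPM, where the triple mutant lay inside the wild-type range. In col17a1a the triple mutant was the lowest and the wild type the highest, with 14 ± 2.24, 6.08 ± 0.41 and 3.01 ± 0.686 TPM.

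Other epidermal genes, from a list of 35 of which 33 could be tested, had triple mutant medians of -0.40, -0.26 and -0.33. Of them 29, 21 and 28 were below 0, against 49.1%, 29.3% and 37.6% of all genes. None was called in the model of all libraries. The fit of the triple mutant alone called 10, 11 and 10 of them lower, against 1.96%, 5.83% and 3.04% of all genes, and 0, 1 and 1 higher, against 0.75%, 18.4% and 3.78%. The higher one was pkp2 both times. TP63, the master regulator of basal keratinocytes, stood at 37.5 and 34.3 TPM untreated, 21.5 and 26.3 TPM at 1 h, 25.4 and 27.02 TPM at 2 h and 22.2 and 20.03 TPM at 3 h, below untreated throughout. In the wild type the list held 1 call, the desmosomal plakophilin pkp2, at 3.97 and 4.13 TPM untreated and 9.16 and 9.54 TPM at 3 h (1.04, adjusted p = 0.0109).

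Markers of other tissues were present in every library, and in the triple mutant several lists lay on the other side of 0. The 12 skeletal muscle genes had medians of 0.13, 0.53 and 0.32, against 0.00, 0.16 and 0.07 over all genes. Of them 10, 12 and 11 were above 0, against 50.4%, 70.1% and 61.8% of all genes. Their summed level was 15424 and 14460 TPM untreated and 14538 and 18202 TPM at 1 h. It was 20321 and 20815 TPM at 2 h and 17360 and 19945 TPM at 3 h. The 12 neuronal genes had medians of 0.13, 0.49 and 0.23, and the 11 notochord genes 0.24, 0.52 and 0.00. Hatching gland genes went with the epidermis, at -0.33, -0.69 and -0.39 over 6 genes, and the hatching enzyme he1.1 fell at 2 h, from 5362 and 5812 to 2802 and 2796 TPM (a log2 change of -1, adjusted p = 0.0349). In the p53 mutant at 3 h all 12 muscle genes were below 0, against 28.1% of all genes. Their median was -0.82, against 0.17 over all genes. Whether a different make-up of the embryos had a part in the members' differences was not tested.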

How the data were processed

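The authors deposited 3 tables of TPM values, 1 for each genotype, and all 18 sample columns were used, so the number of columns left out was 0. Each column was checked to sum to 1000000 TPM, within 1, over 32057 Ensembl genes. The labels give poly(A) selection and paired reads from either of a pair of sequencing centres with different read lengths, without saying which library was read where. The tools in the submitters' processing notes are RSEM 1.3.3, STAR 2.7.3a, R 4.3.3, DESeq2 1.42.1 and HTSeq 0.12.3, on the build GRCz11, with no role for each. TPM keeps no depth, so no counting interval was computed. Gene coordinates and sequences were not used here, and the gene order came from a RefSeq table of another assembly.

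The test used the 18575 genes that reached 1 TPM in 2 or more libraries. A single model of the 9 group means on log2(TPM + 1) came from limma (version 3.58.1, R 4.3.3) and let the spread follow the mean level. The residual degrees of freedom were 9 and the prior ones 2.87. It gave 12 two-sided comparisons, each adjusted over all genes by the Benjamini and Hochberg method. They were 6 irradiated groups against their untreated group, 2 steps in time in the triple mutant and 4 differences between responses. A separate fit used the libraries of 1 genotype. The script was tested on simulated data. Alternatives changed the pseudocount, the filter, the scaling, the weights, the block and the libraries used. Fold changes on this scale understate those of low genes.

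Values in every library are given for each member called in any comparison and for the 3 members of each role with the highest mean TPM. Of the other lists, called genes are named. The level of a further gene is not reported here. Members named beyond that rule were chosen after their values were seen. The members, roles and lists were chosen with earlier results of these data known.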

Additional observations from a re-analysis of the deposited data

Results flagged for a closer look

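The response of epcam at 3 h differed between genotypes by a test of the difference itself. The wild-type change minus the p53 mutant change was -1.67 on the log2(TPM + 1) scale (SE 0.233, adjusted p = 0.0063 in limma), with both wild-type libraries below their untreated pair and both p53 mutant libraries above theirs. In the 4 libraries involved in each genotype, epcam stood at 154 and 139 TPM untreated and 62.1 and 73.6 TPM at 3 h in the wild type, and at 309 and 317 TPM untreated and 471 and 458 TPM at 3 h in the p53 mutant. The call was lost under median-of-ratios scaling and with array weights. Each genotype was deposited separately, so genotype and any difference in how its libraries were made cannot be told apart. Groups of 2 libraries are too small to look for single libraries that stand apart by a fixed rule.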

How the results depend on the processing

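For the wild type at 3 h, leaving out the 3 libraries with high 5.8S gave differences of 0.80 for icn (adjusted p = 0.0106), 0.87 for icn2 (0.00686), 0.44 for krt4 (0.0166), 0.74 for cyt1 (0.000257), 0.82 for cyt1l (0.00026) and 0.69 for anxa1c (0.0117). Leaving out the 3 with low 5.8S gave -0.89 (0.00373), -1.31 (0.000656), -0.32 (0.0366), -0.26 (0.0271), -0.54 (0.00159) and -0.56 (0.017) in the same order. The direction thus followed which untreated library was kept. Each setting leaves 1 untreated wild-type library, so the spread comes from the other groups. Over all their alternatives the adjusted p of these 6 genes ran from 0.000257 to 1.

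Members called in the wild type numbered 2. They were 4 with quantile normalization (4.41% of all genes), 0 with array weights (0.937%), 19 without the high (28.5%) and 26 without the low (58.2%) 5.8S libraries, and 0 in the fit of the wild type alone (0.521%). In the p53 mutant 14 were called at 1 h without the low libraries (33.9%). At 3 h 5 were called without the high (8.46%) and 25 without the low ones (46.9%). In the triple mutant, array weights, leaving out the high libraries, leaving out the low ones and the fit of that genotype alone gave 10, 20, 19 and 21 calls at 1 h (1.28, 2.29, 2.35 and 2.71% of all genes). At 2 h they gave 30, 18, 18 and 21 (38.4, 21.6, 21.9 and 24.3%), and at 3 h 35, 16, 16 and 20 (17.7, 5.54, 5.72 and 6.82%). The same 4 settings gave 4, 10, 9 and 9 calls for 2 h against 1 h (1.17, 5.7, 3.73 and 4.36%) and 22, 8, 8 and 11 for 3 h against 2 h (20.2, 5.68, 5.61 and 6.12%). The wild type minus the p53 mutant gave 0 with median-of-ratios scaling (0.436%), 0 with array weights (0.253%), and 6 and 3 without the high and the low libraries (7.82 and 1.97%). The triple mutant minus the p53 mutant at 3 h gave 1 with quantile normalization (0.571%), 2 with array weights (0.996%), and 14 and 28 without the high and the low libraries (3.98 and 24.3%). The triple mutant minus the wild type gave 25 and 16 without them (15.7 and 29.5%), and the triple mutant minus the p53 mutant at 1 h gave 13 without the low ones (21.3%). The members' median in the triple mutant at 2 h was -0.47 with median-of-ratios scaling and -0.42 with quantile normalization. The cause was not tested.

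Leaving out each library in turn gave 1 to 4 calls in the wild type, 0 to 10 in the p53 mutant at 1 h, 0 to 0 at 3 h, 0 to 0 in the triple mutant at 1 h and 2 h, 0 to 1 at 3 h (1 without either untreated wild-type library), and 0 to 0 for both of its steps. The differences between responses gave 1 to 1 for the wild type minus the p53 mutant, 0 to 1 for the triple mutant minus the p53 mutant at 3 h (1 without either 1 h library of the p53 mutant), 0 to 2 for the triple mutant minus the wild type (2 without replicate 1 of untreated wild type) and 0 to 0 at 1 h. The medians ran from -0.08 to 0.26 in the wild type, -0.27 to 0.02 and 0.13 to 0.32 in the p53 mutant at 1 h and 3 h, and -0.44 to -0.38, -0.31 to -0.25 and -0.41 to -0.38 in the triple mutant.

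Replicate numbers were not taken to pair the libraries, since the deviations of same-numbered libraries did not correlate above 0.1 in every pair of groups. They correlated at 0.79 for the p53 mutant untreated and at 1 h, where replicate 1 is the high 5.8S library of both, at 0.03 and 0.04 for its other pairs, at -0.34 in the wild type and at -0.10 to 0.17 in the triple mutant. With the replicate block, or with the wild-type numbers crossed, each comparison held as many called members as without it, 2 in the wild type (epcam, adjusted p = 0.0144, and krt18a.1, 0.0383) and 1 for the difference between wild type and p53 mutant. Groups of 2 libraries and the unknown depth limit every comparison.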

Other observations

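Outside the set, foxi1, a forkhead factor kept here in the ionocyte list, was called in more than 1 genotype. In the wild type it stood at 6.25 and 7.05 TPM untreated and 34.3 and 29.1 TPM at 3 h, a rise of 2.09 (adjusted p = 3.91e-05 in limma). In the triple mutant it stood at 5.74 and 5.01 TPM untreated, 8.25 and 10.1 TPM at 1 h, 9.8 and 9.99 TPM at 2 h and 19.2 and 20.9 TPM at 3 h, higher in all 6 irradiated libraries and called at 3 h (1.72, adjusted p = 0.000293). In the p53 mutant it stood at 6.32 and 8.35 TPM untreated, 8.19 and 7.44 TPM at 1 h and 10.7 and 9.1 TPM at 3 h and was not called (0.39 at 3 h, adjusted p = 0.497). The wild-type response minus that of the p53 mutant was 1.70 (SE 0.254, adjusted p = 0.00999). Among the members, the ionocyte factors foxi3a and foxi3b did not pass in any comparison, with wild-type differences of 0.24 and -0.16.

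XBP1, a transcription factor of the secretory pathway kept here in the hatching gland list, fell in the wild type from 387 and 325 to 258 and 255 TPM (-0.47, adjusted p = 0.0427). Of 6 keratins outside the member list, 4 could be tested, with triple mutant medians of -0.27, -0.28 and -0.19. The pronephros list (10 genes) had triple mutant medians of 0.16, 0.48 and 0.22, the ionocyte list (9 genes) -0.12, 0.31 and 0.06, the neural crest list (8 genes) -0.18, 0.07 and -0.09, the placode list (8 genes) 0.03, 0.29 and 0.14, and the gut list (5 genes) 0.04, 0.49 and 0.08. In these lists, the hatching gland list apart, no gene other than foxi1 was called in the model of all libraries.

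The 13 mitochondrial transcripts had triple mutant medians of -1.13, -1.56 and -0.81, and 2 of them were called in that model. MT-ND3, a subunit of respiratory complex I, fell at 2 h from 3132 and 3313 to 942 and 1180.4 TPM (-1.61, adjusted p = 0.0269). The ATP synthase subunit mt-atp8 stood at 494 and 367 TPM untreated, was listed at 0 in all 4 libraries at 1 h and 2 h, and stood at 530.3 and 560.4 TPM at 3 h. It was called at 1 h (adjusted p = 0.00139), at 2 h (0.000771), for 3 h against 2 h (0.000565) and for the triple mutant minus the p53 mutant at 1 h (0.0476). The labels do not say which library was read at which centre and read length. Whether that, or the quantification, had a part in the values of 0 was not tested.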
